A study of Mus musculus with 4 samples.

Results

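MCAF1 occupancy was mapped by chromatin immunoprecipitation and sequencing in the V6.5 line of murine embryonic stem cells (C57BL/6-129), and set against the profiles of REST, Ring1b and H4K20me3 from the same line. The MCAF1 library was the member described here, chosen by its antibody label, and it was 1 of 4 libraries in all. The labels name no treatment or mutation for any group. Cells for MCAF1, Ring1b and H4K20me3 had spent 2 passages off their fibroblast feeders, and those for REST 1 passage. Chromatin had a mean fragment size of 500 bp, and DNA was amplified over 18 cycles. The gel slice was 150 to 300 bp for MCAF1 and Ring1b and 150 to 350 bp for REST and H4K20me3. Each antibody had 1 library, so antibody, sequencing run and replicate cannot be told apart and no p-value is given. The other 3 profiles served as background, since an input library was not used here. Intervals are at 95% and hold the counting error alone. For the fold of a single 500-bp bin they hold that of the MCAF1 reads only, with the background taken as fixed, and are too narrow. Intervals of ratios between libraries are approximate. Reads copied by PCR are not separate molecules, which the intervals do not allow for.

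MCAF1, also called ATF7IP, is a nuclear partner of the histone methyltransferase SETDB1. The pair acts in methylation of histone H3 at lysine 9 and in the silencing of retroelements in embryonic stem cells. Of the 3 profiles it was set against, REST is a zinc finger repressor that binds a long DNA element near neuronal genes. Ring1b carries the ubiquitin ligase activity of a Polycomb complex, PRC1, and covers CpG-rich promoters of developmental genes. H4K20me3, trimethylated lysine 20 of histone H4, marks constitutive heterochromatin, where H3 lysine 9 methylation is also found. Genomic positions are in the mm8 assembly, counted from 1. An mm8 sequence or gene annotation was not used here, so regions are given by position without gene names or sequences.

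The files hold 2 categories of alignments. With up to 2 locations reported per read, the first was read as reads with 1 location and the second as reads with 2, a reading taken from the category names and aligner options and not stated in the files. Reads with 1 location were counted once per position and strand and moved 75 bp towards their 3′ end. On chromosomes 1 to 19 this left 10818054 MCAF1, 3063633 REST, 3023138 Ring1b and 7655438 H4K20me3 reads. Repeated positions took 12.3% of MCAF1 reads, 12.7% of REST, 6.33% of Ring1b and 2.06% of H4K20me3. The genome was divided into 500-bp bins, of which 4052418 of 4925060 (82.3%) held a read of any library and are called covered. A covered bin held on average 2.67 MCAF1 reads, 0.756 REST reads, 0.746 Ring1b reads and 1.89 H4K20me3 reads. With so few reads, 0 reads in a bin still allowed up to 3 reads, or 3.97 times the mean for REST, 4.02 times for Ring1b and 1.59 times for H4K20me3. Each of the other 3 libraries was scaled to the MCAF1 total, and their mean is called the pool.

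MCAF1 stood above the pool in few places, and by small factors. A 500-bp bin was called above when it held at least 15 MCAF1 reads and at least 3 times the background, which was the largest of the pool in the bin, the pool in the surrounding 10 kb and the genome mean. At mean background 15 reads amount to 5.62-fold. By this rule MCAF1 was above the pool in 1132 bins, 0.0279% of those covered. These bins took 24009 MCAF1 reads, or 0.222% of the library. The same rule with the roles exchanged called MCAF1 below the pool in 21701 bins (0.536%). Bins in which another profile stood over MCAF1 were thus the more frequent kind. Ring1b was the highest of the 3 in 17414 of the below bins (80.2%), REST in 2455 (11.3%) and H4K20me3 in 1832 (8.44%).

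The bins above the pool lay close to the threshold. Their median fold was 3.98 (interquartile range 3.37 to 5.22, highest 19.3), and 307 of 1132 (27.1%) reached 5-fold and 15 reached 10-fold. The median read number was 17 (interquartile range 16 to 23, highest 127), and 261 bins held exactly 15 reads. Just outside the threshold lay 950 bins with 13 or 14 reads and at least 3-fold. A count of MCAF1 bins therefore reflects where the threshold was put: 402 bins held 20 reads or more and 32 held 50 or more. Reads on both strands contributed alike, with 49.8% of MCAF1 reads in the bins on the plus strand. There were 1.19 reads per distinct position in them, against 1.14 over the autosomes.

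The values of the 3 other libraries in these bins were part of the choice and are given as a description. MCAF1 was at 7.94 times its mean there (7.84 to 8.05), REST at 1.17 times, Ring1b at 1.36 times and H4K20me3 at 2.46 times (2.39 to 2.53). MCAF1 exceeded REST 6.77-fold (6.35 to 7.21), Ring1b 5.84-fold (5.51 to 6.21) and H4K20me3 3.23-fold (3.14 to 3.33). H4K20me3 was within 3-fold of MCAF1 in 480 of the bins (42.4%), Ring1b in 208 (18.4%) and REST in 160 (14.1%). No REST read was found in 493 bins and no Ring1b read in 458, while H4K20me3 was at 0 in 39. The mark was sequenced more deeply than REST and Ring1b, and 1 read of REST or Ring1b weighs 3.53 or 3.58 scaled reads against 1.41 for H4K20me3. A choice on a low pool therefore takes away reads of the shallow libraries more readily, and the order of the 3 libraries in these bins is not a result.

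The region that stood highest by the lower limit of its fold was chr17:86356501-86357000, with 69 MCAF1 reads against 0 REST, 2 Ring1b and 2 H4K20me3 reads, 19.3 times background (14.99 to 24.4). The next, chr14:55191501-55192000, held 118 MCAF1 reads, 0 REST, 0 Ring1b and 18 H4K20me3 reads, 13.9-fold (11.5 to 16.7). H4K20me3 was at 9.53 times its own mean in this bin, so MCAF1 and the heterochromatin mark were both high there while REST and Ring1b gave no read. At chr9:56994501-56995000 there were 40 MCAF1 reads, 0 REST, 0 Ring1b and 5 H4K20me3 reads (14.3-fold, 10.2 to 19.5). At chr18:67945501-67946000 there were 67, 1, 2 and 4 reads in the same order (12.3-fold, 9.53 to 15.6). At chr8:88102501-88103000 there were 54, 0, 2 and 4 reads (12.6-fold, 9.50 to 16.5). In each of these 5 regions 1 bin of 500 bp was called and the neighbouring bins were not.

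The bin with the most MCAF1 reads lay at chr10:127077501-127078000, the left part of a region that ran to 127078500. It held 127 MCAF1 reads, 6 REST, 2 Ring1b and 4 H4K20me3 reads, 11.2-fold (9.34 to 13.3). REST reached 7.94 times its own mean in this bin, the highest REST value among the 10 leading regions. At chr16:93556501-93557000 there were 80 MCAF1, 3 REST, 1 Ring1b and 7 H4K20me3 reads (9.97-fold, 7.91 to 12.4). The other 3 regions of the leading 10, at chr4:43357501-43358000, chr1:30865001-30865500 and chr18:73798501-73799000, held 38, 31 and 31 MCAF1 reads and at most 5 reads of any other library. Their folds were 11.4 (8.08 to 15.7), 11.6 (7.89 to 16.5) and 11.6 (7.89 to 16.5). Both strands contributed in all 10, from 19 plus and 19 minus reads at the chromosome 4 region to 18 and 13 at chr18:73798501-73799000. All 10 best bins were called under each of the 13 alternative settings fixed for this count, but their folds moved. The chromosome 14 region ranged from 8.33-fold to 44.2-fold over these settings.

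**Figure D1:**
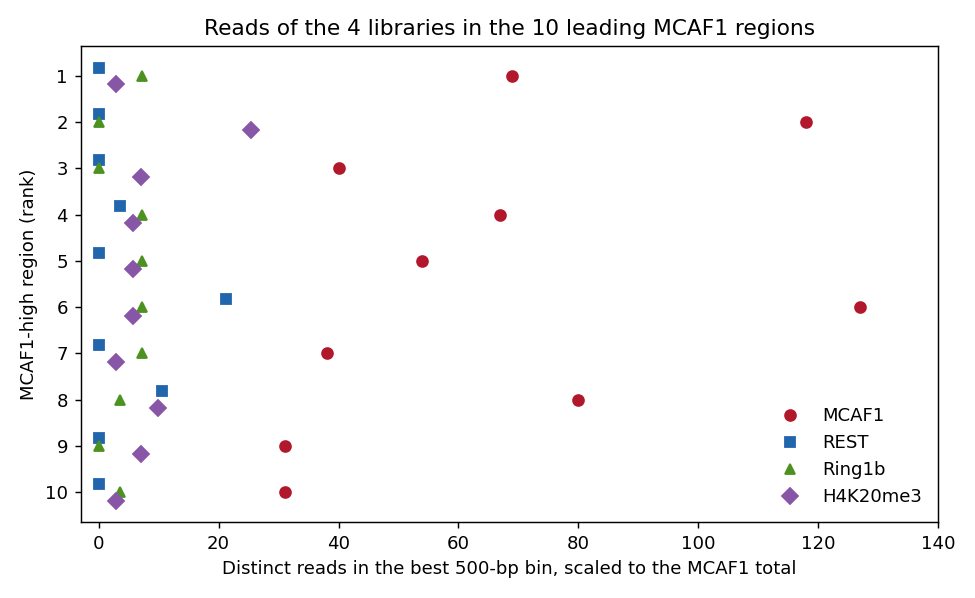
Distinct reads in the best 500-bp bin of the 10 leading MCAF1 regions (vertical axis, rank by the lower limit of the fold), with each library scaled to the MCAF1 total (horizontal axis, reads). Red circles are MCAF1, blue squares REST, green triangles Ring1b and purple diamonds H4K20me3, 1 library each without error bars. MCAF1 lies to the right of the other 3 libraries in all 10 bins, from 31 to 127 reads, and the highest of the other values is that of H4K20me3 in rank 2.

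Most MCAF1 regions consisted of 1 called bin. The called bins held a median of 17 reads at a minimum of 15, so a neighbour with slightly fewer reads was not called. The width of a region therefore depends on the threshold. Called bins no more than 1 kb apart were joined, which gave 1117 regions, and 1102 of them (98.7%) consisted of 1 bin. There were 13 regions of 1000 bp and 2 wider ones. The widest, chr9:118344001-118346000, spanned 2000 bp, held 16 MCAF1 reads in its best bin and was 4.24-fold there (2.42 to 6.89). The 1500-bp region at chr8:124727501-124729000 held 19 reads in its best bin and was 4.02-fold. Each of these 2 widest regions held 2 called bins with an uncalled stretch between them, and neither was among the strong ones. Of the 2 other long regions with higher values besides the one on chromosome 10, chr9:112627001-112628000 had 27 MCAF1 reads and 10.1-fold in its best bin, and chr12:57054501-57055500 had 22 reads and 8.24-fold. The 1132 bins were spread over 1110 separate 10-kb stretches, 21 of which held more than 1, and the most in any was 3. The called bins were 0.0279% of those covered. How many stretches would be shared at random placement was not computed, so these numbers do not show whether the bins are isolated or clustered. The lower limit of the fold was above 2 in 848 of the 1117 regions, above 3 in 324 and above 5 in 51. These limits leave out the counting error of the background, so the numbers are upper ones.

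Since a bin is called on the same reads that give its fold, the fold is inflated by the choice. Bins were therefore chosen on plus-strand reads alone, at 3 times the background and at least 10 MCAF1 reads, and the fold was read from the minus strand, which the choice had not used. In the 925 bins chosen, the plus-strand fold was 5.23 and the minus-strand fold of MCAF1 over the pool was 2.32 (2.23 to 2.41). MCAF1 exceeded the pool on the minus strand in 80.5% of these bins, against 45.1% of all covered bins, and was at least 2-fold above it in 53.3%. The enrichment thus stood on the unused strand, but at less than the fold seen on the strand that chose it. The other libraries were nearer to each other there than on all reads of the called bins: REST was at 2.22 times its mean, Ring1b at 2.93 times (2.75 to 3.12) and H4K20me3 at 3.02 times (2.90 to 3.14). With at least 15 plus-strand reads, 191 bins were chosen and the minus-strand fold was 3.69 (3.43 to 3.97). With at least 20, 66 bins remained and it was 4.29 (3.83 to 4.80), with Ring1b at 4.87 times its mean (4.04 to 5.83) and H4K20me3 at 4.03 times (3.54 to 4.56). The intervals of Ring1b and H4K20me3 overlapped at each of these limits, 15 included, where Ring1b was at 3.47 times and H4K20me3 at 4.096 times. The exchanged design, chosen on the minus strand and read on the plus strand, gave 2.36 in 964 bins. H4K20me3 was at 3.11 times its mean there (2.99 to 3.22) and Ring1b at 2.78 times (2.61 to 2.96). With at least 15 minus-strand reads they were at 4.32 (4.01 to 4.63) and 3.44 times (3.01 to 3.903). With at least 20 the intervals overlapped. Ring1b and H4K20me3 were thus set apart only in the exchanged design, at 10 and 15 reads.

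Minus-strand reads around the 191 bins chosen on 15 or more plus-strand reads showed the shape of the MCAF1 signal. Within 250 bp on either side of the centre MCAF1 was at 13.5 and 11.9 times its mean. It was at 4.04 and 3.37 times between 250 and 500 bp and at 1.95 and 2.001 times between 500 and 750 bp. Between 1000 and 3000 bp on either side it lay between 1.49 and 1.96 times the mean. MCAF1 was thus a sharp peak on a flank slightly denser than the genome. REST rose to 2.85 and 2.66 times its mean at the centre and Ring1b to 3.90 and 3.03 times. H4K20me3 was raised over a wider stretch, with 3.97 and 4.22 times at the centre, 3.57 and 3.76 times between 250 and 500 bp, and from 1.76 to 3.31 times between 1000 and 3000 bp. The choice required a low pool on the plus strand of the central bin, which holds down the other 3 libraries there, so their height at the centre cannot be set against their height on the flanks.

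**Figure D2:**
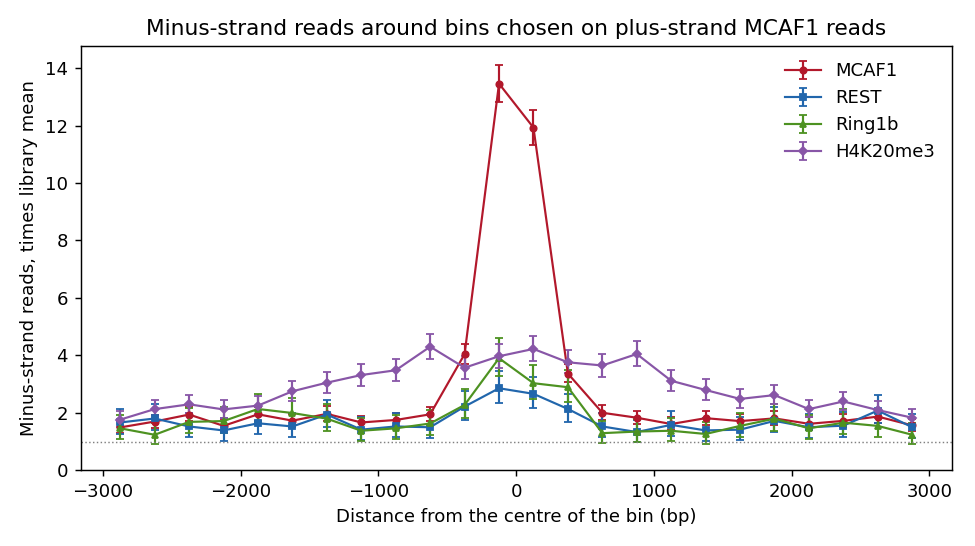
Minus-strand reads, in multiples of each library's mean (vertical axis), by distance from the centre of 191 bins chosen on plus-strand MCAF1 reads (horizontal axis, bp, steps of 250 bp). Lines are the 4 libraries, bars the 95% counting intervals and the dotted line the mean. MCAF1 peaks at 13.5 times within 250 bp of the centre, while H4K20me3 lies near 4 times over a wider stretch and falls off slowly.

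At equal depth MCAF1 was the least enriched of the 4 profiles. All libraries were thinned at random to 3023138 reads, and each was called against the other 3 by the same rule. MCAF1 was above in 36 bins, 0.000888% of those covered, H4K20me3 in 523, REST in 1259 and Ring1b in 12439. The highest folds were 15.4 for MCAF1, 41.6 for H4K20me3, 71.0 for REST and 103 for Ring1b. Of the 36 MCAF1 bins, 29 were among the 1132 called at full depth. The minimum of 15 reads was kept, while a covered bin then held 0.746 reads on average in place of 2.67 for MCAF1. It was thus a higher bar, which most of the bins called at full depth could not pass. The folds on the strand not used for the choice kept this order at 1 of 2 limits. In bins chosen on at least 6 plus-strand reads, the minus-strand fold was 1.87 for MCAF1 (1.73 to 2.02, 392 bins), 2.94 for H4K20me3 (2370 bins), 6.29 for REST (2245 bins) and 8.04 for Ring1b (18274 bins). With at least 10 plus-strand reads MCAF1 had 21 bins at 4.45-fold (3.52 to 5.64) and H4K20me3 267 bins at 4.203-fold, and these intervals overlap. REST was at 9.57-fold and Ring1b at 11.9-fold. MCAF1 therefore differed from the H4K20me3 library in how many bins passed, and its few highest bins had a fold that could not be set apart from that of the mark.

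The spread of reads over the genome gave a second measure of how weak the enrichment was, one that does not need the other libraries as background. At equal depth, bins were ranked by plus-strand reads and minus-strand reads were counted in the top ones. The top 1% of covered bins took 2.96% of MCAF1 reads (2.93% to 2.98%), 5.42% of H4K20me3, 6.17% of REST and 21.1% of Ring1b. The top 0.1% took 0.672% of MCAF1 reads, 1.33% of H4K20me3, 2.24% of REST and 7.98% of Ring1b. MCAF1 came closest to an even spread at each cut-off. Part of its concentration came from bins dense in every library: 3548 bins in which all 4 libraries reached 5 times their mean held 0.778% of MCAF1 reads. Without these bins the top 1% took 2.61% of MCAF1 reads, and the top 0.01% took 0.0874% in place of 0.241%. Of these bins, 1 was called above the pool and 234 were called below it.

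**Figure D3:**
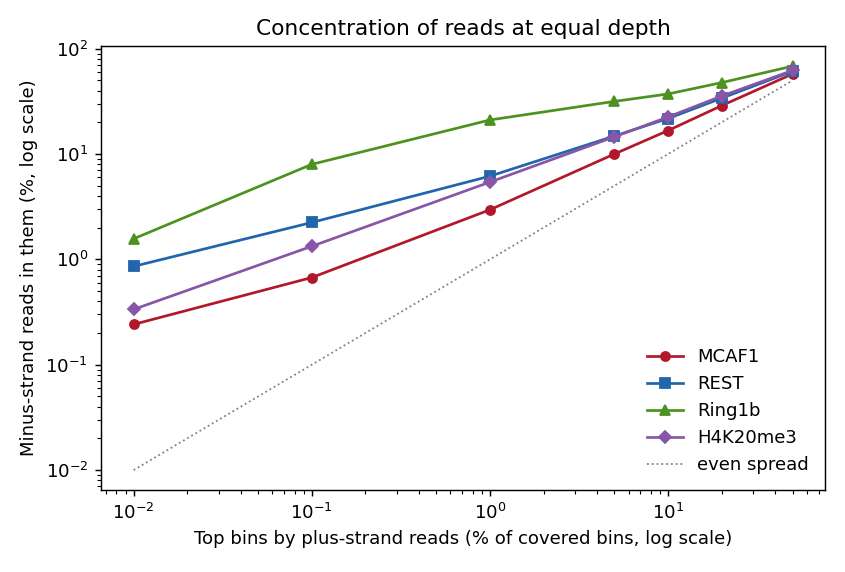
Percent of minus-strand reads (vertical axis, log scale) in the top bins of each library when bins are ranked by plus-strand reads (horizontal axis, percent of covered 500-bp bins, log scale), with all 4 libraries thinned to 3023138 reads. Coloured lines are the libraries and the dotted line is an even spread. MCAF1 is the lowest of the 4 lines at each cut-off, with 2.96% of reads in the top 1% of bins.

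MCAF1 density rose with the density of each other profile. Bins high in all 4 libraries were left out here. This leaves out bins by their MCAF1 density too and lowers MCAF1 in the dense classes. A levelling at high density is therefore not a result. In bins with 0 REST reads MCAF1 was at 0.848 times its mean, and in bins with REST at 2 to 4, 4 to 8, 8 to 16 and 16 or more times its mean MCAF1 was at 1.34, 2.22, 3.41 and 3.45 times. By Ring1b the values ran from 0.835 in bins without a read to 1.34, 1.95, 3.06 and 2.94. Where Ring1b was at 16 or more times its mean its own density was 37.2 times, so MCAF1 rose far less than the library that chose the bins. By H4K20me3 the MCAF1 values ran from 0.650 to 1.63, 2.39, 2.98 and 3.60. The 3 series share the MCAF1 reads and are not independent. Libraries of different depth also sort bins with different noise, so the series cannot be ranked against each other.

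**Figure D4:**
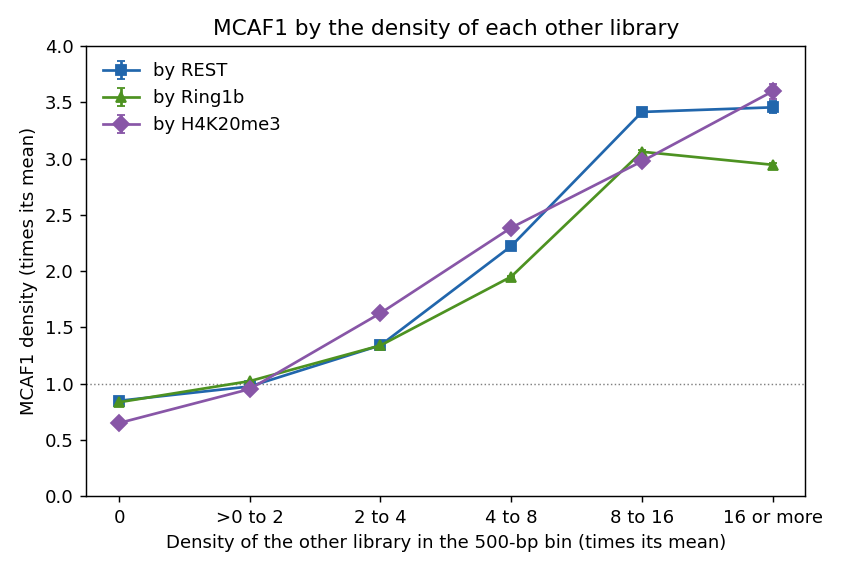
MCAF1 density in multiples of its mean (vertical axis) in 500-bp bins grouped by the density of REST, Ring1b or H4K20me3 in multiples of that library's mean (horizontal axis); bins high in all 4 libraries are left out. Points are summed densities with 95% counting intervals, many smaller than the symbol. Bins were left out by their MCAF1 density too, which lowers the points of the dense classes. MCAF1 rises from 0.650 to 0.848 times its mean in bins without a read of the other library to between 2.94 and 3.60 times in the densest bins.

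Bins high in only 1 of the other profiles held modest MCAF1. Bins high in all 4 libraries were kept here. High was set at 8 times the mean or more and low at 2 times or less. Covered bins with any of the 3 profiles between these limits entered no class. MCAF1 was at 1.75 times its mean where REST alone was high (866 bins), at 1.85 times where Ring1b alone was high (4063 bins) and at 2.39 times where H4K20me3 alone was high (1744 bins). It was at 0.768 times where all 3 were low (2684802 bins). Where REST and Ring1b were both high MCAF1 was at 4.39 times (786 bins), and with REST and H4K20me3 it was at 4.08 times (50 bins). Ring1b with H4K20me3 gave 2.83 times (1142 bins), and all 3 together 8.33 times (1974 bins). Of the last class, 901 bins were among those dense in all 4 libraries, and without them MCAF1 was at 3.33 times (1073 bins), a value that leaving out bins by their MCAF1 density lowers. The other classes held none of those bins. MCAF1 was thus higher with REST and Ring1b together than with either alone, and its value with all 3 depended on the bins dense in every library.

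Over 10-kb bins MCAF1 followed H4K20me3 and REST more closely than at 500 bp, and Ring1b to a like degree. The 192695 bins with at least 15 of 20 covered 500-bp bins were compared. MCAF1 was at least 2 times the pool in 2794 (1.45%) and at most 1 read to 2 of the pool in 3077 (1.6%). The median ratio was 1.09, a log2 ratio of 0.13, and from the 5th to the 95th percentile the ratio ran from 0.653 to 1.70. Of the called bins, 47.6% were above. When libraries were scaled to an equal median of 10-kb bins in place of an equal total, 779 were above and 6584 below, so 10.6% of the called bins were above. Bins below prevailed under both scalings, by a small margin at equal total. Above bins prevailed at a ratio of 1.5 (22760 against 10702) and in a pool without REST (8519 against 3350), without Ring1b (2999 against 2058) or without H4K20me3 (9129 against 5157). They also did so by a small margin with any covered bin (6632 against 6535). No direction of MCAF1 at 10 kb is therefore given.

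The 10-kb bins in which MCAF1 was above were sparse ones, in which counting noise is largest. They held a median of 39 MCAF1 reads, fewer than the median of 48 over all tested bins. MCAF1 was at 0.811 times its own mean in them, REST at 0.372, Ring1b at 0.280 and H4K20me3 at 0.431 times. The low values of the other 3 libraries restate the call, which was made on the ratio, and MCAF1 itself was not dense in these bins. The highest ratio lay at chr14:77570001-77580000, with 40 MCAF1, 1 REST, 0 Ring1b and 11 H4K20me3 reads and a ratio of 6.29 (3.14 to 13.8). Next were chr11:14220001-14230000, with 30, 4, 0 and 3 reads (4.90, 2.01 to 14.4), and chr5:60100001-60110000, with 31, 3, 1 and 4 reads (4.69, 2.004 to 12.9). None of these 3 held a 500-bp bin called above. Of the 2794 bins, 45 (1.61%) held such a bin, against 0.561% of the tested bins, and 104 (3.72%) had a neighbour that was also above. Above bins made up 1.45% of the tested bins and a bin has a neighbour on each side, so no clustering is read from this share.

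The 10-kb bins in which MCAF1 was below were mostly those of Ring1b. Ring1b was the highest of the 3 in 2236 of 3077 (72.7%), REST in 736 (23.9%) and H4K20me3 in 105 (3.41%). In them Ring1b was at 10.02 times its mean, REST at 2.07, H4K20me3 at 2.07 and MCAF1 at 1.19 times. The lowest ratios were at chr13:40740001-40750000, chr2:115750001-115760000 and chr3:129190001-129200000, with 84, 81 and 81 MCAF1 reads. Ring1b had 1732, 1420 and 1348 reads in these bins, and the ratios were 0.0385, 0.0452 and 0.0472. MCAF1 was above the tested median of 48 reads in each, while Ring1b, which drove the call, was dense. Of the below bins 767 (24.9%) had a neighbour that was also below, while below bins made up 1.6% of the tested bins.

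The ratio of MCAF1 to the pool was also read by density, with the bins grouped on plus-strand reads of the pool and the ratio taken on the minus strand. In 10 equal groups, starting with the sparsest, the ratio was 1.10, 1.13, 1.14, 1.16, 1.18, 1.17, 1.15, 1.11, 1.02 and 0.693. MCAF1 was thus between 1.02 and 1.18 times the pool in 9 of the groups and under it in the densest. The groups were formed on the pool, which is also the denominator, and the change of strand takes out its counting error only. Bins in which a library of the pool is dense fall in the last group, so the low ratio there is partly set by the grouping. Against H4K20me3 alone the ratio fell from 1.30 in the lowest group to 0.812 in the highest. Against Ring1b it rose from 1.202 to 1.37 and then fell to 0.516, and against REST it went from 0.879 to 1.13 and back to 0.860. The ratio to H4K20me3 thus fell over the whole range, while those to Ring1b and REST were highest at intermediate density. Each of these libraries is part of the pool that formed the groups, so the shapes are given as a description.

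**Figure D5:**
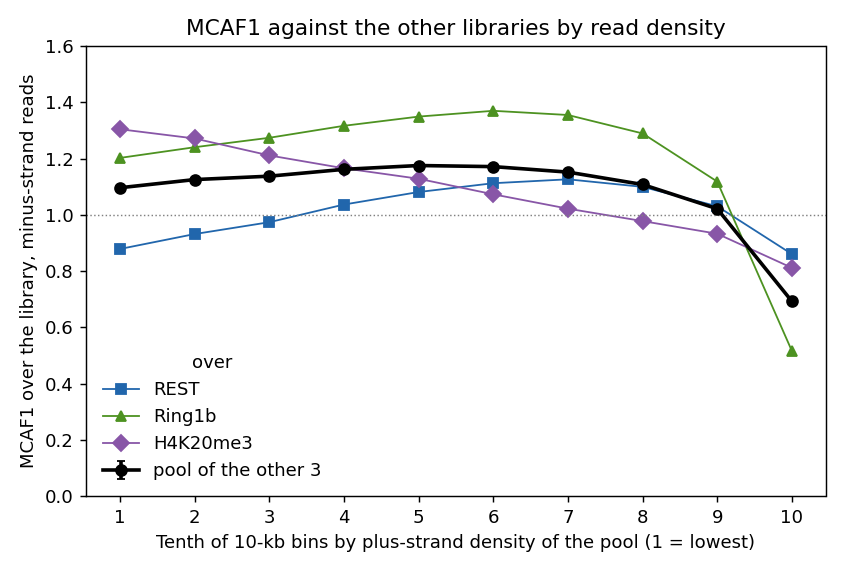
Ratio of MCAF1 to REST, Ring1b, H4K20me3 and the pool on the minus strand (vertical axis) in 10 equal groups of 10-kb bins ordered by plus-strand density of the pool (horizontal axis, 1 is the lowest). The dotted line is a ratio of 1, and each library is scaled to the MCAF1 total. The ratio to the pool lies between 1.02 and 1.18 in groups 1 to 9 and at 0.693 in the densest group, where the ratio to Ring1b is 0.516. The groups were formed on the pool, which is the denominator, so the low ratio in the densest group is partly set by the grouping.

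Little of the 10-kb variation of MCAF1 was its own. After the counting variance was taken off, MCAF1 density varied by 50.7% of its mean between 10-kb bins, against 60.1% for REST, 70.9% for H4K20me3 and 221% for Ring1b. The other 3 libraries left 14.3% of the MCAF1 variance unexplained in a linear regression over 192447 bins, from which the 248 bins high in all 4 libraries were left out. The same figure was 18.8% for H4K20me3, 28.0% for REST and 80.6% for Ring1b. Corrected for counting error, the correlation of MCAF1 with H4K20me3 was 0.893, with REST 0.841 and with Ring1b 0.331. These are correlations across bins of single libraries, which are not independent replicates, and a bin has the same base composition in all 4 libraries. In the joint regression the slope was 0.445 on H4K20me3, 0.323 on REST and -0.0150 on Ring1b. At 500 bp 44.02% of the MCAF1 variance was not shared, and the correlations were 0.720, 0.5001 and 0.329 in the same order.

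The 10-kb ratio, with its counting noise, was only weakly correlated between bins. The log2 ratio of MCAF1 to the pool on the plus strand correlated with that on the minus strand at 0.365 in the same bin. The correlation was 0.108 with the bin 10 kb away, 0.0572 at 20 kb, 0.0260 at 100 kb and 0.00916 at 500 kb. The correlation thus fell with distance. Counting noise lowers all of these values, that of the same bin included, and was not taken off.

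The bins above the pool lay in denser surroundings than an average bin. The median pool in the surrounding 10 kb was 69.1 reads at the MCAF1 depth for bins above, against 38.8 for all covered bins and 180.6 for bins below. This is partly set by the call, which needs 15 MCAF1 reads, since MCAF1 followed H4K20me3 and REST at 10 kb. Bins with as many MCAF1 reads that were not called were not compared. Of the above bins, 45 (3.98%) shared their 10 kb with a below bin, against 5.04% of covered bins. The pool in the surrounding 10 kb is part of the background of a call, which makes calls beside dense bins of the pool harder. By chromosome the frequency ran from 18.8 per 100000 covered bins on chromosome 14 (13.2 to 26.02) to 36.7 on chromosome 10 (29.1 to 45.6). MCAF1 bins were thus found on all 19 autosomes at rates within 2-fold of each other.

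Reads with 2 locations were kept apart, and MCAF1 stood above the pool in few bins there too. Such reads made up 6.43% of reported MCAF1 alignments, 12.1% of REST, 10.97% of Ring1b and 6.89% of H4K20me3. They were counted as distinct reported locations, so a read with both locations in the same bin counts 2 times there. The minimum of 15 was applied to these locations. Of 1007180 bins covered by them, 165 (0.0164%) were above the pool by the rule used for the other reads and 139 (0.0138%) were below. The median fold in the bins above was 4.15, close to the 3.98 of 1-location reads. MCAF1 was at 30.2 times its mean in them, but 15 reads already amount to 21.7 times the mean of 0.692 reads. H4K20me3 was at 10.8, Ring1b at 3.85 and REST at 3.34 times, again in bins chosen on a low pool. Of the 165 bins, 20 were also above with 1-location reads.

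The 5 leading regions of 2-location reads, ranked by their fold over the pool, held no such read of the other 3 libraries. They were chr10:127077501-127078000 with 48 MCAF1 locations, chr14:55191501-55192000 with 38, chr3:90028001-90028500 with 34, chr11:103164001-103164500 with 31 and chr17:46813001-46813500 with 19. With the mean of covered bins as background, the first was 69.4-fold (51.1 to 92.0) and the last 27.5-fold (16.5 to 42.9). These intervals take each location as a separate read. Where both locations of a read lie in the bin, the number of reads is smaller and the interval too narrow. The first 2 are also among the 10 leading regions of 1-location reads described above, on chromosomes 10 and 14. An MCAF1 read with 2 locations was present in 35.2% of the 1132 bins above the pool, against 7.94% of covered bins. It was present in 10.9% of the 11344 bins that held 15 or more MCAF1 reads and were not above. Per 100 MCAF1 reads with 1 location, those with 2 numbered 7.61, 4.94 and 6.40 in the same order. Such reads of the other libraries were also more frequent in the bins above than in covered bins. REST had them in 15.3% against 7.63%, Ring1b in 15.6% against 6.16% and H4K20me3 in 18.2% against 5.92%. In the 11344 bins the shares were 15.4%, 18.9% and 8.44%.

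In some of these bins the 2-location reads could be paired at 1 spacing on the same strand. The deposited entries do not name the partner of a read, so the spacing was searched from 1 to 600 bp and the one that paired the most entries was kept, a search added after the values were seen. At the chromosome 14 region all 50 entries could be paired at 28 bp. At the chromosome 3 region 46 of 58 were paired at 70 bp, and at the chromosome 10 region 56 of 88 at 2 bp. Of the 165 bins called above, 17 (10.3%) had at least 80% of their entries paired at 1 spacing, against 11 of 951 bins (1.16%) that held 15 or more reads and were not called. Of the 1132 bins above with 1-location reads, 108 (9.54%) held at least 5 MCAF1 reads with 2 locations, and 17 of these 108 (15.7%) had 80% of entries paired. Locations side by side were thus the pattern at the chromosome 14 region and in a minority of the other bins. The aligner seed was 36 bases for MCAF1 and H4K20me3 and 26 bases for REST and Ring1b. Seed length and antibody cannot be told apart for REST and Ring1b, and the part of the seed length in the MCAF1 values was not tested. When bins with a 2-location read of any library were left out, an alternative chosen after the data were seen, 562 of the 1132 bins remained.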

How the data were processed

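The authors deposited a signed position for each reported alignment, negative on the minus strand and not normalised. Per the file headers, reads were aligned with Bowtie (no version stated) to mm8 with a seed of 36 bases (MCAF1, H4K20me3) or 26 bases (REST, Ring1b), 2 seed mismatches, a mismatch quality sum of 70 and up to 2 locations per read. Which end of a minus-strand read its position marks is not stated there, and counting without a shift was tried as an alternative to 75 bp.

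Distinct reads were counted in 500-bp and 10-kb bins, each library was scaled to the MCAF1 total on chromosomes 1 to 19, and MCAF1 was set against the mean of the other 3 libraries. At 10 kb a ratio of 2 in either direction was called. The 10 regions with the highest lower limit of the fold, the 5 longest, the 3 highest and 3 lowest 10-kb bins and the 5 highest regions of 2-location reads are named. Variance beyond counting was taken from the covariance matrix with the counting variance removed from its diagonal. The calling and variance steps were tested on simulated counts per bin, and the counting of reads was not tested in this way. MCAF1 as subject, the rules and the thresholds were chosen with earlier results of these data known. Alternatives changed thresholds, shift, repeated reads, pool and scaling. Calculations were made with numpy 2.4.6 and scipy 1.17.1 in Python 3.11.15, and plots with matplotlib 3.10.9.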

Additional observations from a re-analysis of the deposited data

Results flagged for a closer look

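Chromosome X was not part of the comparison. By the same rule MCAF1 stood above the pool in 4 of its 177571 covered 500-bp bins, 2.25 per 100000 (0.614 to 5.77), against 27.9 per 100000 on the autosomes. A covered bin of the X chromosome held 1.14 MCAF1 reads on average, so 15 reads are a higher bar there than on the autosomes, where the mean was 2.67.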

How the results depend on the processing

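The number of 500-bp bins above the pool was 1132 as reported, 2497 at a fold of 2, 561 at a fold of 4, 3054 with at least 12 reads, 402 with at least 20 reads, 2997 with repeated reads kept and 750 with libraries scaled to an equal median. In alternatives chosen after the data were seen it was 36 at equal depth and 562 without bins holding a 2-location read. Other shifts, pools and backgrounds gave 1007 to 1507. Bins below the pool numbered 33627 at a fold of 2 and 10706 in a pool without Ring1b, in place of 21701. At 10 kb, 22760 bins were above and 10702 below at a ratio of 1.5, 6632 and 6535 with any covered bin, and 779 and 6584 at equal medians, in place of 2794 and 3077. Above the pool were 8519 without REST and 9129 without H4K20me3, and below it 5157 without H4K20me3. The top-bin share of MCAF1 reads (2.96%) was 0.672% at the top 0.1%, 10.01% at the top 5% and 3.09% with repeated reads. The unshared variance (14.3%) was 13.9% with bins high in all 4 libraries kept, 44.02% at 500 bp and 17.3% with repeated reads. The fold on the unused strand (2.32) was 3.69 with at least 15 reads. Apart from changed thresholds and fewer reads or bins, which set counts by construction, the cause of these moves was not tested. At 10 kb bins above outnumbered bins below at a ratio of 1.5, with any covered bin and in each pool of 2 libraries, the opposite of the reported setting. No paired analysis was possible because each antibody had 1 library. Depth limits REST and Ring1b most, with under 1 read per covered bin.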
